A study of Mus musculus with 85 samples.

Results

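Mouse 2-cell embryos grown without pyruvate were compared at 52 h and at 48 h after human chorionic gonadotropin (hCG), the hormone given to set the time of ovulation. The comparison rests on 9 of the 85 libraries of the series: 5 titled as late 2-cell embryos without pyruvate (48 h) and 4 titled as very late 2-cell embryos without pyruvate (52 h). The libraries were chosen by their titles alone. All embryos were wild type, of strain B6C3F1/J. The standard medium, KSOM, contains glucose (0.2 mM), pyruvate (0.2 mM) and L-lactate (5 mM). For the pyruvate-free groups only the pyruvate was left out, so glucose and lactate were present throughout. RNA was reverse transcribed from an oligo-dT primer by the Smart-seq2 protocol, which copies polyadenylated RNA. The labels do not give the number of embryos in a library or say that the replicates came from separate matings. The p-values therefore rest on a spread between libraries that may be technical. For single genes (limma) that spread is estimated jointly from 34 libraries of 9 groups and not from these 9 libraries alone. The standard 2-cell libraries of 48 h (n = 3) and 52 h (n = 3) served as the matched interval.

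The early mouse embryo takes up pyruvate as its main fuel, and mitochondria oxidise it through the pyruvate dehydrogenase complex. During the 2-cell stage transcripts stored by the oocyte are removed, a short burst of embryonic genes such as the Zscan4 and Obox families is transcribed and switched off again, and the main wave of genome activation supplies the RNAs for ribosomes, splicing and growth. CPM, read counts scaled to a common total, are shares of a library: a gene can rise in CPM because it was made or because other transcripts left, and in embryos measured whole, fewer cells of a type and less RNA per cell cannot be told apart.

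Between 48 h and 52 h the pyruvate-free embryos moved towards the later standard stages. A stage position was computed for each library by projecting it on the line from standard 2-cell embryos of 34 h (position 0) to standard 4-cell embryos of 62 h (position 1). The 48 h libraries stood at 0.326, 0.224, 0.232, 0.280 and 0.2998, and the 52 h libraries at 0.414, 0.415, 0.425 and 0.424. The groups did not overlap, and the 4 later libraries lay within 0.00592 (SD) of their mean while the 5 earlier ones spread by 0.0438. The mean rose by 0.147, with p = 0.0159 by an exact two-sided permutation test, the smallest p that 4 libraries against 5 allow (adjusted p = 0.0212 over the 4 whole-library measures tested). Standard embryos had mean positions of 0.617 at 48 h and 0.775 at 52 h, so the pyruvate-free libraries of 52 h lay below all 3 standard libraries of 48 h, whose lowest position was 0.615.

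**Figure D1:**
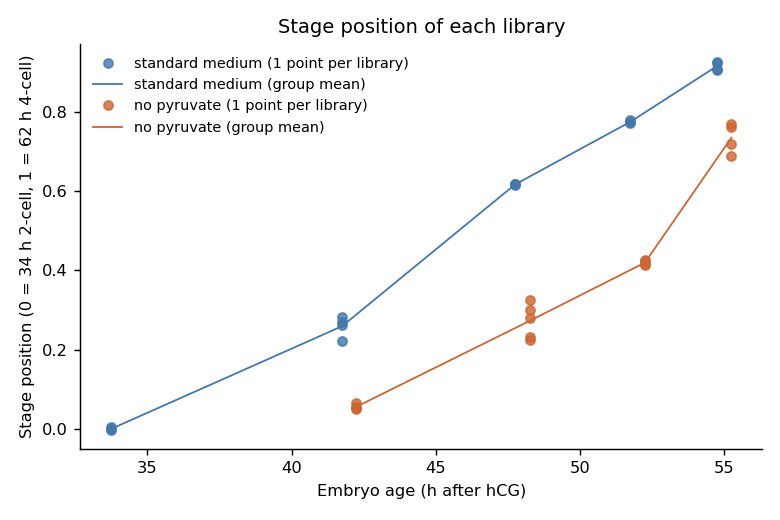
Stage position of each library (vertical axis, from 0 for standard 34 h 2-cell embryos to 1 for standard 62 h 4-cell embryos) against embryo age in hours after hCG, with the 2 media set slightly apart sideways and lines joining group means. Without pyruvate the 48 h libraries sit between 0.224 and 0.326 and the 52 h libraries between 0.414 and 0.425, below the standard libraries of the same ages.

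Distances over all genes gave a similar order. Each 48 h library was nearest to the mean of standard 42 h embryos, at a root mean square log2 distance of 0.512 to 0.589. Each 52 h library was about as far from standard 42 h (0.922 to 0.984) as from standard 48 h (0.972 to 1.02), and no standard 2-cell group lay as near to it as standard 42 h lay to the 48 h libraries. The 100 most abundant genes held 35.9 ± 1.97% (SD, n = 5) of all counts at 48 h and 31.4 ± 1.69% (SD, n = 4) at 52 h, a change of -4.503 percentage points (p = 0.0159, exact permutation test, two-sided). The number of genes above 1 CPM rose from 16256 ± 278 to 17057 ± 208 (p = 0.0159, exact permutation test). The share of the mitochondrially encoded genes was 7.50 ± 0.651% and 7.54 ± 1.61% (p = 0.984, exact permutation test).

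Sequencing depth was estimated from the commonest low value of each library, taken as 1 read. The estimates were 14.9 to 24.997 M reads at 48 h and 10.4 to 19.6 M reads at 52 h. Differences were also squared for each of 16 pairs of libraries of the same group, leaving out genes with low values. Their median was at least 12.3 times that of counting alone, a ratio of variances that rests on these estimates. Markers of other cells were low: 8 of 16 cumulus and granulosa markers were below 1 CPM in all 9 libraries, among them Fshr, Amh and Foxl2, and Cd44 was listed at 0. The highest of the others were Cyp19a1, Tnfaip6 and Hsd3b1, at up to 9.40, 8.88 and 6.62 CPM. The 16 summed to 17.3 to 27.2 CPM at 48 h and 6.06 to 13.4 CPM at 52 h. Of the 8 tested with limma, 3 (37.5%) fell, against 12.7% of all genes, and none rose (0 also at an unadjusted p below 0.05). All 3 falls kept their call under 4 other scalings. The 7 blood markers summed to 14.9 to 28.6 and 20.5 to 29.9 CPM, and 11 sperm markers to 99.9 to 147 and 169 to 226 CPM, nearly all of it Odf2, which also builds the centrosome (134, 108, 118, 103 and 85.8 CPM in the 48 h libraries and 159, 169.8, 210.2 and 182 CPM in the 52 h libraries). CT010467.1, an entry annotated as ribosomal RNA and likely to share reads with its copies, held 865, 716, 819, 688 and 498 CPM at 48 h and 7056, 8125, 6023 and 6510 CPM at 52 h; in standard medium it varied from 597 to 5021 CPM among the 48 h libraries and from 3742 to 5170 CPM at 52 h. Transcripts rich in G and C gained. Among 10905 genes with a mean above 5 CPM the median change went from -0.12 in the decile of genes with the lowest GC content to 0.72 in the decile with the highest, and from -0.49 to 0.38 in standard medium over the same hours. The part of these differences in the results below was not tested, but most counts are given with the number that kept its call under 4 other scalings, and 1 of these removes the GC trend from every library.

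**Figure D2:**
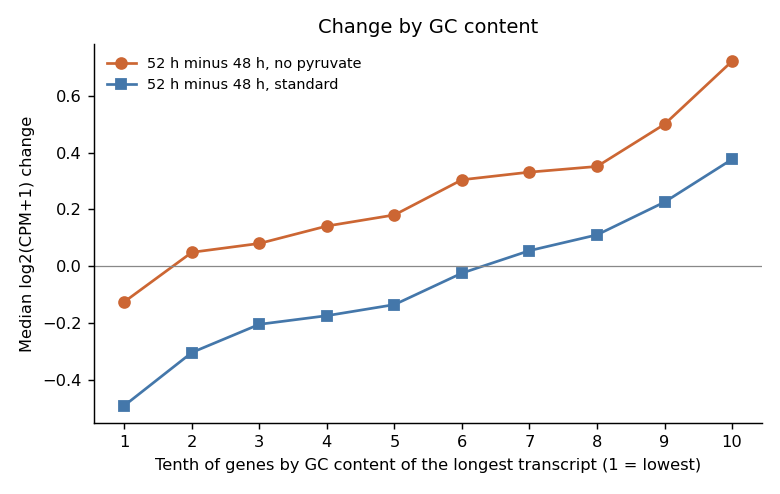
Median log2(CPM + 1) change from 48 h to 52 h (vertical axis) for deciles of genes ordered by the GC content of their longest transcript (horizontal axis), without pyruvate and in standard medium. Both lines rise from the lowest to the highest decile, from -0.12 to 0.72 without pyruvate and from -0.49 to 0.38 in standard medium.

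Of 20739 genes tested with limma, 5755 were higher (27.7%) and 2628 lower (12.7%) at 52 h than at 48 h at an adjusted p below 0.05, 40.4% in all, and the median gene changed by 0.19 on the log2(CPM + 1) scale. The excess of rises depended on the scaling. With median-ratio scaling, quantile normalization, and removal of a trend with gene length or with GC content, the median was -0.04, 0.04, -0.01 and -0.02, and rises made up 42.2%, 49.8%, 48.6% and 50.6% of the calls against 68.7% with CPM as deposited. Under all 4 of these scalings 2704 genes kept their rise and 2426 their fall, which is 13.0% and 11.7% of the genes tested. A background of 31.9% of genes had no overlap between the 4 and the 5 libraries. Most genes named below were chosen with no overlap between the groups as a condition. For these, the lack of overlap was fixed by the choice and is not a separate result. Because the excess of rises depended on the scaling, lists are described by their counts and by how their median stands to the median of all genes.

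Many of the same genes changed in the standard time course. The standard 2-cell and 4-cell libraries share no library with the pyruvate-free groups. Of 8474 genes that rose in standard medium from 42 h to 48 h (40.9% of genes tested), 48.6% rose without pyruvate from 48 h to 52 h and 2.596% fell; of 2772 that fell (13.4%), 49.0% fell and 5.27% rose. These genes made up 71.5% of the pyruvate-free rises and 51.7% of the falls. For the standard interval of 48 h to 52 h, 58.7% of its 2920 rises (14.1% of genes tested) and 41.7% of its 2780 falls (13.4%) were called in the same direction, which is 29.8% of the pyruvate-free rises and 44.1% of the falls. Across genes, which are not independent, the pyruvate-free change had a Spearman rho of 0.59 with the standard change from 42 h to 48 h, 0.50 with that from 48 h to 52 h, 0.35 with that from 34 h to 42 h and 0.08 with that from 52 h to 55 h, the interval in which standard embryos reach the 4-cell stage.

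Most stored maternal transcripts fell. Of 71 maternal oocyte transcripts tested, 47 fell and 8 rose, with a median of -0.94 against 0.19 for all genes, and 44 falls and 3 rises kept their call under all 4 scalings. Rgs2, a regulator of G-protein signalling (chromosome 1, 143999338 to 144004161 in mm10 coordinates of GENCODE vM21), had the largest fall of the genes named here: 301, 338, 596, 359.8 and 389 CPM in the 48 h libraries and 47.99, 40.8, 23.4 and 13.8 CPM in the 52 h libraries. Every 52 h library lay below every 48 h library (log2 change -3.72 ± 0.34 (SE), adjusted p = 4.5e-10). Rfpl4, an oocyte protein linked to ubiquitination, was at 2108, 3582, 3901, 3289 and 3175 CPM in the 48 h libraries and 529.5, 502, 376 and 371 CPM in the 52 h libraries. Rfpl4 changed by -2.84 ± 0.21 (log2, SE), adjusted p = 3.8e-12. Accsl, an oocyte-abundant relative of plant ACC synthases (chromosome 2, 93855361 to 93869157), fell from 2346 ± 144 to 362 ± 60.2 CPM with a tight spread in both groups (log2 change -2.71 ± 0.14 (SE), adjusted p = 9.5e-16). Ooep, part of the subcortical maternal complex, fell from 128 to 26.1 CPM (log2 change -2.26 ± 0.26), and Bcl2l10, an oocyte BCL2 relative, fell from 3389 ± 505 to 1018 ± 174 CPM (log2 change -1.74 ± 0.17). The 8 transcripts that rose were Zp1, Zp3, Zbed3, Ccnb1ip1, Oog3, Kit, Figla and Sohlh1, named here after their values were seen. Htra1, a secreted serine protease chosen among the largest falls of all genes, fell from 41.2 ± 6.59 to 7.42 ± 1.28 CPM. Htra1 changed by -2.32 ± 0.30 (log2, SE), adjusted p = 2.3e-07. The 8 rises include 2 genes of the egg coat and 2 transcription factors of the oocyte.

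The enzymes and adaptors that remove maternal mRNA rose more often than they fell, while the oocyte-specific adaptor Btg4 fell. Of 32 genes, 16 rose and 4 fell (median 0.43), and 10 rises and 3 falls kept their call under all 4 scalings. Btg4, the oocyte adaptor that brings the CCR4-NOT deadenylase to maternal transcripts (chromosome 9, 51060901 to 51119875), had 8092, 10434, 9122, 9810 and 10391 CPM in the 48 h libraries and 2530, 2615, 2950 and 2657 CPM in the 52 h libraries, and the groups did not overlap (log2 change -1.83 ± 0.14 (SE), adjusted p = 5.1e-12). Cnot2, Cnot7 and Pabpn1l, named after their values were seen, were the other 3 that fell. Among the 16 that rose were Upf1, the helicase of nonsense-mediated decay, from 19.8 to 83.5 CPM (log2 change 2.02 ± 0.27), Cnot3, a CCR4-NOT subunit, from 12.1 to 46.4 CPM (1.82 ± 0.26), and Ythdf2, a reader of methylated adenosine, from 104 to 229 CPM (1.15 ± 0.19). In standard medium 6 of the 32 rose and 6 fell over the same hours. Btg4 fell further there, from 1748 to 259.8 CPM, and the difference of the 2 changes was 0.92 ± 0.22 (SE), adjusted p = 0.0051, a call that was kept under 3 of 4 scalings.

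Genes of the 2-cell burst moved both ways: 3 Obox genes of the list fell steeply while Zscan4e rose. Of 44 burst genes, 15 fell and 9 rose (median -0.33), and 15 falls and 5 rises kept their call under all 4 scalings. The Obox genes encode homeodomain factors of the 2-cell embryo and lie near one another on chromosome 7; being close copies, they may share reads. Obox5 (chromosome 7, 15750131 to 15759800) was at 5818, 9853, 7069, 7574 and 9949 CPM in the 48 h libraries and 1914, 1967, 2239 and 1968 CPM in the 52 h libraries. Obox5 changed by -1.97 ± 0.19 (log2, SE), adjusted p = 1e-09. Obox1 fell from 1873 ± 532 to 293 ± 49.9 CPM (log2 change -2.64 ± 0.22 (SE), adjusted p = 7.2e-11), and Obox2 from 460.0 to 107 CPM (log2 change -2.06 ± 0.20). Obox7, which is not on the list and comes from the largest falls of all genes, fell from 455 to 61.04 CPM (-2.84 ± 0.27). Even at 52 h these levels were above those of standard 48 h embryos for Obox1, Obox2 and Obox5, where the means were 171, 72.9 and 806 CPM. Zscan4e, of the zinc-finger family that marks the burst and whose copies are also near-identical, rose instead: 12.1, 17.5, 28.8, 9.55 and 7.55 CPM in the 48 h libraries and 63.2, 60.7, 68.8 and 55.2 CPM in the 52 h libraries. Zscan4e changed by 2.11 ± 0.48 (log2, SE), adjusted p = 0.00072. Zscan4b, Duxf3, Usp17lc, Usp17le, Obox6, Pramel7, Snai1 and Dppa4 were the other 8 that rose.

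In standard medium none of the 44 burst genes rose from 48 h to 52 h in the limma test (2 did at an unadjusted p below 0.05) and 28 fell. The change differed between media in 20 of them, 19 higher and 1 lower without pyruvate, against a background of 9.74% of all genes higher and 3.69% lower. Under the 4 other scalings 8 to 20 were higher and 1 was lower. How far the lower stage position of the pyruvate-free libraries entered these differences was not tested. For Zscan4e the standard libraries held 2.03, 5.104 and 8.51 CPM at 48 h and 5.64, 5.55 and 0.416 CPM at 52 h, and the difference of changes was 2.62 ± 0.76 (SE), adjusted p = 0.021. That call was lost without replicate 3 of the standard 48 h group (2.24, adjusted p = 0.083) or of the standard 52 h group (1.88, adjusted p = 0.11), and with a pseudocount of 0.1 (adjusted p = 0.11), without the filter (0.054) or with the replicate block (0.052). The 5 Zscan4 genes Zscan4b, Zscan4c, Zscan4d, Zscan4e and Zscan4f and the 4 Usp17l genes Usp17lb, Usp17lc, Usp17ld and Usp17le were among the 19. For the maternal list the corresponding counts were 15 higher and 1 lower, the lower one being Rgs2 (difference -2.18 ± 0.54 (SE), adjusted p = 0.007).

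**Figure D3:**
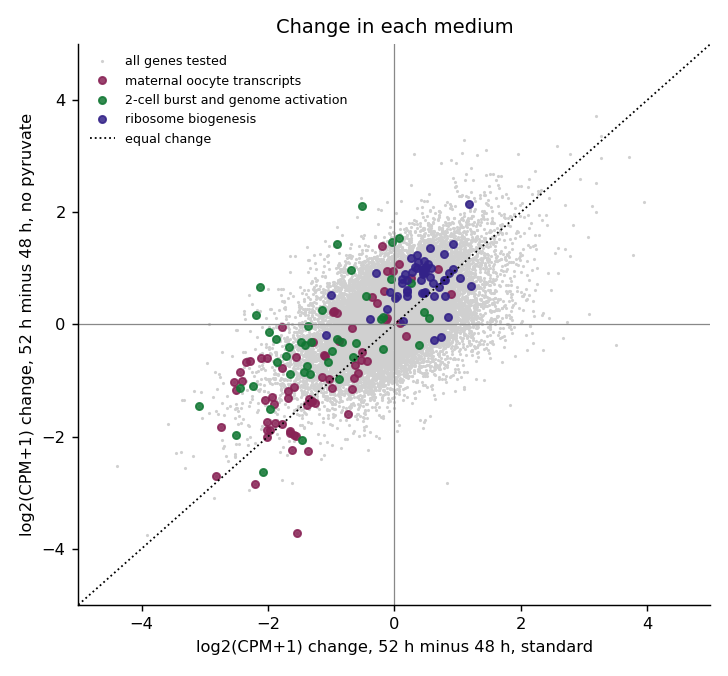
Log2(CPM + 1) change from 48 h to 52 h without pyruvate (vertical axis) against the change over the same hours in standard medium (horizontal axis), 1 point per gene tested, with 3 gene lists coloured and a dotted line of equal change. Burst genes lie mostly above the line (19 higher, 1 lower by the test of the difference), maternal transcripts lie mostly in the lower left, and ribosome biogenesis genes lie mostly above 0 on the vertical axis.

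Of the 15 largest rises among named genes, 9 are described here; CT010467.1, given above, was also among them. Ubald1 had the largest rise of the genes named here, with 9.003, 4.499, 7.202, 6.39 and 6.11 CPM in the 48 h libraries and 126, 128, 72.9 and 78.5 CPM in the 52 h libraries. Ubald1 changed by 3.72 ± 0.37 (log2, SE), adjusted p = 1.8e-09. Gsk3a, a glycogen synthase kinase, was at 4.905, 1.94, 3.45, 3.35 and 2.26 CPM in the 48 h libraries and 35.4, 33.3, 31.98 and 36.01 CPM in the 52 h libraries, so that the 4 later libraries lay within a narrow band well above the 5 earlier ones (log2 change 3.12 ± 0.24 (SE), adjusted p = 1.2e-11). Arf5, a small GTPase of the Golgi, rose from 10.2 ± 2.52 to 90.99 ± 12.5 CPM (log2 change 3.05 ± 0.27 (SE), adjusted p = 2.3e-10), Scaf1, a splicing-related partner of RNA polymerase II, from 5.51 to 51.8 CPM (log2 change 3.03 ± 0.32) and Rnf126, a ubiquitin ligase, from 10.4 to 88.1 CPM (3.01 ± 0.36). Entpd7, which hydrolyses nucleoside triphosphates, Tnfsf12, the cytokine TWEAK, and Klf13, a zinc-finger transcription factor, rose by 2.94, 2.87 and 2.65 on the log2 scale. Rbm22, a splicing factor, rose from 8.57 to 59.3 CPM. All 9 kept their call under all 4 scalings. Among these 9 the change exceeded that of standard medium for Gsk3a (difference 1.67), Arf5 (1.99), Rnf126 (1.71), Entpd7 (2.04) and Tnfsf12 (1.90); for Rnf126 the call was kept under only 1 of 4 scalings and lost in 9 of the 15 fits that left out 1 library (adjusted p up to 0.12, without replicate 3 of the standard 48 h group), for the other 4 it was kept under all.

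Most genes of the RNA polymerase II machinery rose with CPM as deposited. Of 43 genes of the machinery 26 rose (60.5%) and 2 fell (4.65%), against 27.7% and 12.7% of all genes, with a median of 0.56. Under the other scalings 18 to 21 rose and 2 to 6 fell, and 17 rises and 1 fall kept their call under all 4. In standard medium 15 rose and 1 fell over the same hours. The change differed between media in 1 gene that was higher and 1 that was lower without pyruvate. Taf10, a subunit of TFIID, went from 11.3 ± 2.55 to 63.3 ± 7.77 CPM. Taf10 changed by 2.40 ± 0.18 (log2, SE), adjusted p = 7.9e-12. Polr2a, the catalytic subunit, had 5.24, 3.76, 4.601, 5.41 and 3.71 CPM in the 48 h libraries and 20.1, 33.1, 22.3 and 28.5 CPM in the 52 h libraries, low at 48 h and higher in every 52 h library (log2 change 2.27 ± 0.28 (SE), adjusted p = 8.6e-08). The elongation factors Supt5 and Supt6 rose from 5.79 to 24.2 CPM and from 13.7 to 30.2 CPM. Among 43 chromatin modifiers 18 rose (41.9%) and 3 fell (6.98%), with 13 and 2 kept under all 4 scalings. The methyltransferase Kmt2d rose from 113 to 551 CPM, the acetyltransferase Ep300 from 13.04 to 45.8 CPM and the H3K27 demethylase Kdm6b from 111 to 325 CPM. For Kdm6b the standard change was small, from 93.4 to 111 CPM, and the 2 changes differed by 1.30 ± 0.29 (SE), adjusted p = 0.0032, a call kept under all 4 scalings.

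Ribosome biogenesis had the highest share of rises among the 36 lists, 86.8%. Of 53 genes 46 rose and none fell in the limma test (1 fell at an unadjusted p below 0.05), with a median of 0.79. Under the other scalings the number that rose was 27 (median-ratio) to 36 (GC trend removed) with up to 3 falls, 25 rises were kept under all 4, and the median stayed above 0 at 0.49 to 0.58. In standard medium over the same hours 17 rose and 2 fell, with a median of 0.46 against -0.02 for all genes there. The change differed between media in 6 of the 53, 4 higher and 2 lower without pyruvate. The background was 9.74% of all genes higher and 3.69% lower. Mybbp1a, a nucleolar MYB-binding protein, had 8.05, 3.22, 2.37, 3.098 and 4.198 CPM in the 48 h libraries and 15.6, 25.5, 23.1 and 19.99 CPM in the 52 h libraries. Mybbp1a changed by 2.16 ± 0.26 (log2, SE), adjusted p = 9.1e-08. Nop16, a factor for the large ribosomal subunit, had 86.8, 36.6, 32.9, 66.5 and 94.5 CPM in the 48 h libraries and 153, 115, 168 and 179 CPM in the 52 h libraries (log2 change 1.37 ± 0.24 (SE), adjusted p = 3e-05). Its 48 h libraries spread almost 3-fold. Polr1c, a subunit shared by RNA polymerases I and III, rose from 62.4 ± 20.9 to 145 ± 20.1 CPM (log2 change 1.26 ± 0.17), and Ubtf, the RNA polymerase I transcription factor, from 8.796 ± 2.48 to 25.8 ± 7.305 CPM (1.44 ± 0.21).

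The 250 bases before the RefSeq start of 3 of these genes and of Pdp2, the pyruvate dehydrogenase phosphatase described below, are shown. All 4 genes were chosen with no overlap between the groups as a condition, so their rise in every 52 h library is not a separate result. Whether they share a regulator was not tested. Sequences are those of RefSeq on GRCm38.p6, 5′ to 3′ on the strand of the gene, with the matches to CACGTG (the E-box read by MYC-MAX), GGGCGG (the GC box) and CCGGAAGT (an ETS motif), on either strand, in capitals.
Pdp2 (chr8:104591222-104591471, plus strand): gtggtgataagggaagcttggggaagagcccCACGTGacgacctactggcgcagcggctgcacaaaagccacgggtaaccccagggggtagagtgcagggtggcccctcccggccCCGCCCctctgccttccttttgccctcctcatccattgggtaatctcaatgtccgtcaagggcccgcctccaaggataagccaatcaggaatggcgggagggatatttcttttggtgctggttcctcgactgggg
Mybbp1a (chr11:72441077-72441326, plus strand): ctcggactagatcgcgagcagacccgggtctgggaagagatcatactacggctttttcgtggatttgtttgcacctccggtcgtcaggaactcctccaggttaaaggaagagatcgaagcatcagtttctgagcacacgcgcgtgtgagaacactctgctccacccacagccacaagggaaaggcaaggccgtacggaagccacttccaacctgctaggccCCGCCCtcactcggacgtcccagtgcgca
Nop16 (chr13:54590075-54590324, minus strand): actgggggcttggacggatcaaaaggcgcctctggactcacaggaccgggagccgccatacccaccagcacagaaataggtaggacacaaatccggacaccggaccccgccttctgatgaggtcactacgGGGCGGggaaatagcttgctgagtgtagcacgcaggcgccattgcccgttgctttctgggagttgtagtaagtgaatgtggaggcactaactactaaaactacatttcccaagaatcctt
Polr1c (chr17:46248046-46248295, minus strand): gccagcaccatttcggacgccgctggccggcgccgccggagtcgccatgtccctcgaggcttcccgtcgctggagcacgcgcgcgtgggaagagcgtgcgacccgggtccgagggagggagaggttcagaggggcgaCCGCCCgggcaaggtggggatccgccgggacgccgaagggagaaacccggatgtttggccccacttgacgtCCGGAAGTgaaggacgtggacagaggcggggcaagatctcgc
Each of the 4 windows held 1 GGGCGG match, which 32.7% of all 32851 promoter windows of this length 51.1% of the 16180 windows of genes tested and 69.6% of the 56 windows of ribosome biogenesis genes held. CACGTG was found once, in Pdp2; it was in 6.02% of all windows, 7.87% of those of genes tested and 5.36% of the ribosome biogenesis windows. CCGGAAGT was found once, in Polr1c, and in 2.88% of all windows, 5.05% of those of genes tested and 14.3% of the ribosome biogenesis windows. A match is a string of letters and not a shown site, and its absence says nothing of the factor.

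Genes of the translation apparatus moved less evenly. Of 79 cytosolic ribosomal protein genes 28 rose and 3 fell (median 0.38), but only 5 rises and 3 falls kept their call under all 4 scalings, where the median was 0.08 to 0.24. Rps10 rose from 17.99 ± 5.69 to 91.4 ± 21.4 CPM (log2 change 2.31 ± 0.26 (SE), adjusted p = 2.4e-08), Rpl28 from 9.35 to 25.6 CPM and Rps29 from 19.4 to 38.6 CPM. Rpl41 was at 254, 167, 172, 260.1 and 383 CPM in the 48 h libraries and 476, 537, 417 and 536 CPM in the 52 h libraries. Rpl41 changed by 1.05 ± 0.19 (log2, SE), adjusted p = 6e-05. Of 44 initiation and elongation genes 20 rose and 11 fell, with 16 and 10 kept. Eif4g1, the cap-binding scaffold, rose from 21.3 ± 2.96 to 91.97 ± 9.37 CPM (log2 change 2.06 ± 0.15 (SE), adjusted p = 4.7e-12), Eif1, a factor for start codon choice, from 327 to 1183 CPM, Eif3c from 21.3 to 60.9 CPM and Eif4e1b, the oocyte form of the cap-binding protein, from 58.05 to 169 CPM. Of 20 aminoacyl-tRNA synthetases 5 rose and 2 fell with CPM, but 3 rose and 8 fell with median-ratio scaling, and 3 rises and 2 falls were kept under all 4. Aars and Eprs rose from 15.04 to 31.02 CPM and from 36.3 to 66.7 CPM, while Tars and Farsb fell from 65.9 to 29.4 CPM and from 363 to 176 CPM.

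Core splicing genes split. Of 38 genes 16 rose and 8 fell, with 11 and 7 kept under all 4 scalings. Snrpc, of the U1 particle, rose with 43.5, 28.3, 32.99, 26.6 and 32.5 CPM in the 48 h libraries and 193, 198, 153 and 184 CPM in the 52 h libraries. Snrpc changed by 2.45 ± 0.25 (log2, SE), adjusted p = 2.2e-09. Snrpb2, of the U2 particle, fell with 139, 214, 241, 244 and 250.2 CPM in the 48 h libraries and 62.7, 70.6, 41.7 and 43.2 CPM in the 52 h libraries (log2 change -1.98 ± 0.23 (SE), adjusted p = 4.1e-08), and no library of one group reached the other. The Sm proteins Snrpd3 and Snrpf fell from 71.4 to 22.2 CPM and from 89.2 to 28.6 CPM. In standard medium Snrpb2 went from 60.2 to 48.7 CPM and Snrpd3 from 54.03 to 46.9 CPM, and the changes differed between media by -1.70 and -1.48, calls kept under all 4 scalings. Of 32 proteasome subunit genes 11 rose (34.4%) and 4 fell (12.5%), against 27.7% and 12.7% of all genes. Psmb1 rose from 41.4 to 119.8 CPM, Psmd7 from 56.3 to 155 CPM, Psmd14 from 25.995 to 65.8 CPM and the ubiquitin receptor Adrm1 from 9.05 to 31.4 CPM. The list's median was 0.23 and lay between -0.08 and 0.06 under the other scalings. The median of all genes, 0.19 with CPM, lay between -0.04 and 0.04 there. The direction of the list is not settled. In standard medium 14 proteasome genes rose and none fell in the limma test (0 also at an unadjusted p below 0.05), and the test of the difference called 9 of the 32 lower and 1, Psmb1, higher without pyruvate, a call lost in 12 of the 15 fits that left out 1 library (adjusted p up to 0.093, without replicate 3 of the standard 52 h group); under the other scalings 12 to 15 were lower and none higher.

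**Figure D4:**
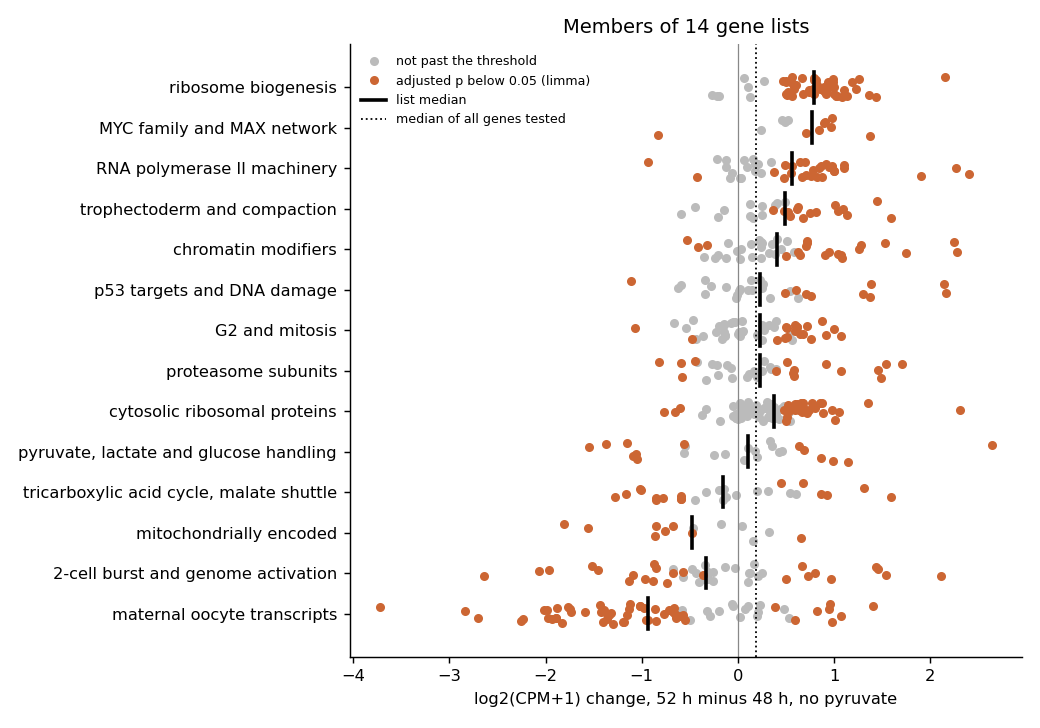
Log2(CPM + 1) change from 48 h to 52 h without pyruvate (horizontal axis) of each tested member of 14 gene lists, coloured where the adjusted p was below 0.05, with black bars for list medians and a dotted line for the median of all genes (0.19). Maternal transcripts centre on -0.94, and ribosome biogenesis genes centre on 0.79 with 46 of 53 called.

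Genes that handle pyruvate, lactate and glucose did not move as a group. Of 25 tested (Pdk4 did not pass the filter on low values) 6 rose (24.0%) and 7 fell (28.0%), against 27.7% and 12.7% of all genes. The median of 0.10 turned negative under each of the 4 other scalings (-0.24 to -0.08), where that of all genes, 0.19 with CPM, lay between -0.04 and 0.04. Under all 4 scalings 3 rises and 7 falls kept their call. Pdp2, the phosphatase that switches the pyruvate dehydrogenase complex on (chromosome 8, 104591451 to 104599026), had the largest change: 77.1, 41.3, 51.8, 56.6 and 51.7 CPM in the 48 h libraries and 453, 355, 281 and 316 CPM in the 52 h libraries. Every 52 h library was at least 3-fold above every 48 h library (log2 change 2.64 ± 0.26 (SE), adjusted p = 1.6e-09). In standard medium it rose as well, with 524, 327 and 409 CPM at 48 h and 1449, 1167 and 1396 CPM at 52 h, and the difference of the changes did not pass the threshold (0.95 ± 0.41 (SE), adjusted p = 0.12). Its relative Pdp1 went from 50.4 to 33.6 CPM (adjusted p = 0.14), and was called lower under 3 of the 4 other scalings. Of the opposing kinases, Pdk1 went from 25.97 to 29.2 CPM (adjusted p = 0.52) and Pdk3 from 122 to 126 CPM (adjusted p = 0.84), while Pdk2 rose at a very low level, from 0.884 to 3.25 CPM (log2 change 1.14 ± 0.29), a call lost with a pseudocount of 0.1 (adjusted p = 0.062) and with the GC trend removed (adjusted p = 0.069).

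Subunits of the pyruvate dehydrogenase complex differed among themselves. Pdhx, the protein that anchors the E3 subunit, fell with 168, 191, 220.4, 194 and 193 CPM in the 48 h libraries and 84.5, 68.9, 67.1 and 45.7 CPM in the 52 h libraries. Pdhx changed by -1.55 ± 0.16 (log2, SE), adjusted p = 4.5e-09. Dld, the E3 subunit itself, fell from 53.3 ± 8.08 to 24.5 ± 4.83 CPM (log2 change -1.09 ± 0.17). The catalytic subunits Pdha1, Pdhb and Dlat went from 27.4 to 31.7 CPM, from 125 to 133 CPM and from 50.2 to 44.9 CPM, none of the 3 past the limma threshold (adjusted p = 0.36, 0.65 and 0.55). In standard medium Pdhx went from 47.4 to 44.7 CPM and Dld from 28.1 to 25.2 CPM, already low at 48 h. The changes differed between media by -1.47 ± 0.25 (SE), adjusted p = 0.00037 for Pdhx and by -0.94 ± 0.27 (SE), adjusted p = 0.019 for Dld, both kept under all 4 scalings. The difference for Dld was lost without replicate 2 of the standard 48 h group (-0.86, adjusted p = 0.058), without replicate 1 of the standard 52 h group (-0.84, adjusted p = 0.055) and with the replicate block (-0.80, adjusted p = 0.077). The mitochondrial pyruvate carrier genes rose, Mpc1 from 282 ± 51.1 to 449 ± 29.1 CPM (log2 change 0.69 ± 0.14 (SE), adjusted p = 0.00028) and Mpc2 from 55.1 ± 12.4 to 99.3 ± 7.68 CPM (log2 change 0.87 ± 0.16); the call for Mpc1 was kept under 3 of 4 scalings and that for Mpc2 under all.

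Ldhb, the stored form of lactate dehydrogenase, had 1203, 1847, 1900, 1734 and 1862 CPM in the 48 h libraries and 903, 840.2, 763 and 574 CPM in the 52 h libraries (log2 change -1.15 ± 0.18 (SE), adjusted p = 7.4e-06); replicate 1 of the 48 h group was the lowest of that group and still above all 52 h libraries. Ldha went from 51.8 to 35.5 CPM (adjusted p = 0.091), with overlap, and was called lower under all 4 other scalings. The monocarboxylate carriers Slc16a1 and Slc16a7 fell from 60.003 to 40.3 CPM and from 3.21 to 1.04 CPM (log2 change -0.56 and -1.05). The fall of Slc16a1 was lost without 48 h replicate 1 (-0.48, adjusted p = 0.064) or 52 h replicate 2 (-0.47, adjusted p = 0.091). Slc16a3 was near 0 (from 0.311 to 0.667 CPM, adjusted p = 0.23); their chaperone Bsg went from 39.4 to 54.9 CPM (adjusted p = 0.057). Of the glucose carriers Slc2a1 fell with 37.3, 37.5, 43.96, 31.3 and 25.6 CPM in the 48 h libraries and 13.4, 18.1, 10.7 and 10.03 CPM in the 52 h libraries (log2 change -1.37 ± 0.29 (SE), adjusted p = 0.00032), a call lost with a pseudocount of 0.1 (adjusted p = 0.072), and Slc2a3 rose from 13.9 to 27.4 CPM (log2 change 0.99 ± 0.24). Me1, the cytosolic malic enzyme that makes pyruvate, fell from 357 ± 87.7 to 167 ± 11.98 CPM. Me1 changed by -1.06 ± 0.17 (log2, SE), adjusted p = 5.3e-06. Me2 (from 56.6 to 71.2 CPM), Pcx (from 5.32 to 4.23 CPM) and Gpt (from 0.991 to 1.87 CPM) did not pass the threshold, and Gpt2, a mitochondrial alanine transaminase, rose from 30.997 to 47.3 CPM (adjusted p = 0.0096), a call that no other scaling kept.

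Slc16a1, Ldha and Pdk3 had a more negative change in standard medium than without pyruvate. In standard medium they went from 104 to 30.8 CPM, from 65.03 to 18.6 CPM and from 52.3 to 26.1 CPM, and the differences of the changes were 1.14, 1.25 and 1.10. The call was kept under all 4 scalings for Slc16a1, under 1 for Pdk3 and under none for Ldha. Pdk2, at a few CPM, differed by 1.49, a call that no other scaling kept. Each of the 4 calls also rested on single libraries. That for Slc16a1 was lost without replicate 3 of the standard 48 h group (0.90, adjusted p = 0.081) or of the standard 52 h group (1.00, adjusted p = 0.057). That for Pdk3 was lost without replicate 2 of the standard 48 h group (1.02, adjusted p = 0.063) or replicate 1 of the standard 52 h group (0.79, adjusted p = 0.11). Of the 15 fits without 1 library, 9 lost that for Ldha (adjusted p up to 0.13, without replicate 1 of the standard 52 h group) and 4 that for Pdk2 (up to 0.098, without replicate 3 of the standard 48 h group).

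**Figure D5:**
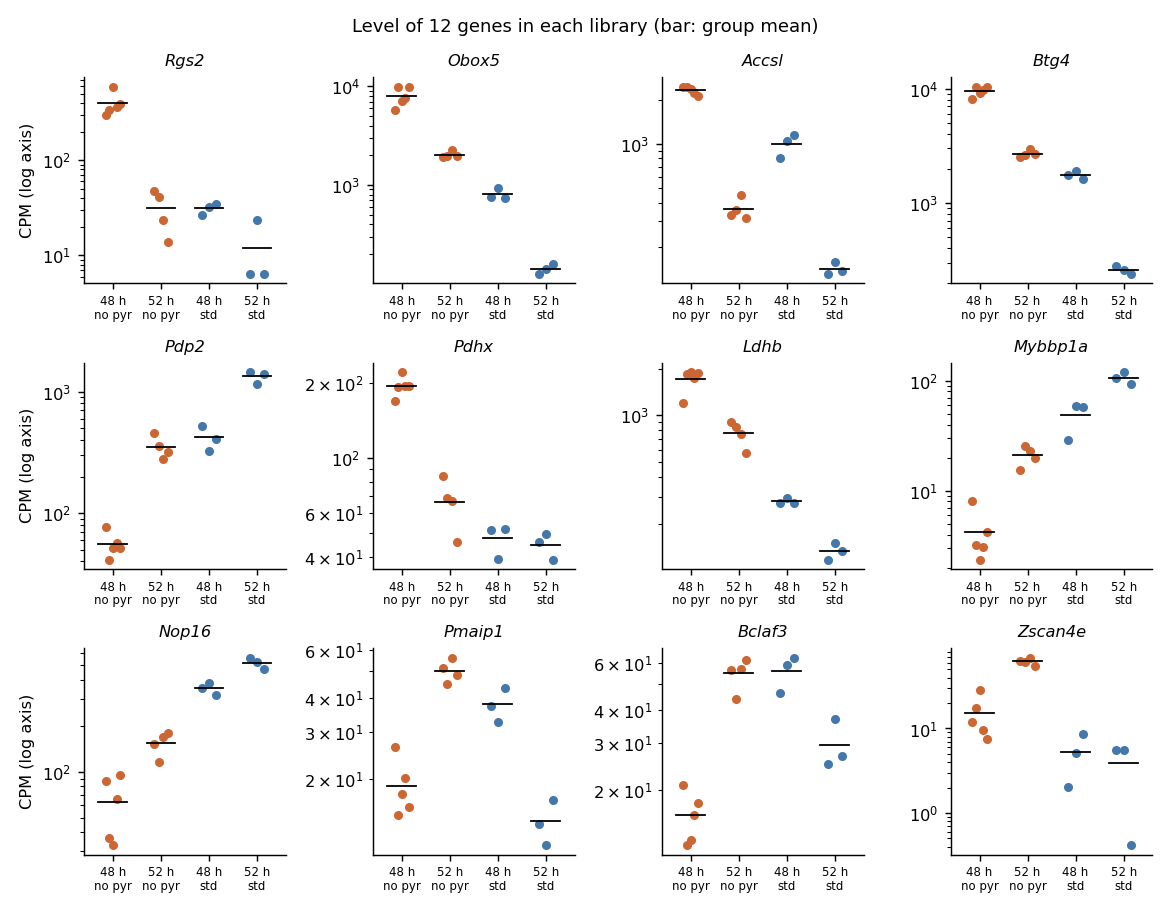
CPM of 12 genes (vertical log axes) in each library of the 48 h and 52 h groups without pyruvate (orange) and in standard medium (blue), with a bar for each group mean. Rgs2, Obox5, Accsl, Btg4, Pdhx and Ldhb fall and Pdp2, Mybbp1a, Nop16, Pmaip1, Bclaf3 and Zscan4e rise without pyruvate, with no overlap between the 4 and the 5 libraries. All but Bclaf3 met a rule that required no overlap.

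Further along the mitochondrial pathways single enzymes changed in opposite directions. Of 27 genes of the tricarboxylic acid cycle and malate-aspartate shuttle 6 rose and 10 fell, and 3 rises and 10 falls kept their call. The median, -0.15, was lower under each of the other scalings (-0.46 to -0.41), where that of all genes, 0.19 with CPM, lay between -0.04 and 0.04. Mdh2, mitochondrial malate dehydrogenase, rose from 86.97 ± 20.5 to 259 ± 16.9 CPM (log2 change 1.59 ± 0.14 (SE), adjusted p = 1.7e-10) and Ogdh, the 2-oxoglutarate dehydrogenase, from 28.7 to 73.5 CPM. Fh1, fumarase, fell from 26.6 to 10.9 CPM and Suclg2, of succinyl-CoA synthetase, from 187 ± 16.7 to 83.1 ± 9.38 CPM (log2 change -1.16 ± 0.17). Of 71 nuclear genes of the respiratory chain 33 rose and 7 fell (12 and 6 kept; 15 rose and 18 fell with median-ratio scaling), against 29 rises and no fall in standard medium by limma (0 falls also at an unadjusted p below 0.05). The 2 core proteins of complex III moved apart: Uqcrc1 rose from 7.31 to 21.1 CPM and Uqcrc2 fell from 37.8 ± 4.09 to 13.98 ± 3.37 CPM. For Uqcrc2 the standard change was from 34.9 to 43.1 CPM, and the 2 changes differed by -1.68 ± 0.29 (SE), adjusted p = 0.00038. Of the 13 mitochondrially encoded genes 7 fell and 1, mt-Cytb, rose: the small complex I subunits mt-Nd3 and mt-Nd4l fell from 466 ± 73.7 to 132 ± 24.3 CPM and from 583 to 201 CPM, mt-Atp8 from 3844 to 2131 CPM and mt-Co2 from 3063 to 1753 CPM. The rise of mt-Cytb was not kept under median-ratio scaling.

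Of 22 glycolysis genes 4 rose (18.2%) and 4 fell (18.2%), against 27.7% and 12.7% of all genes. Among them Tigar, a fructose bisphosphatase, rose from 69.4 ± 18.1 to 180.4 ± 6.51 CPM (log2 change 1.40 ± 0.19). Tpi1, triose phosphate isomerase, fell from 52.3 ± 3.84 to 19.8 ± 5.77 CPM (-1.39 ± 0.18). G6pdx, the entry enzyme of the pentose phosphate pathway, fell from 661 ± 120.0 to 292 ± 12.1 CPM. G6pdx changed by -1.16 ± 0.20 (log2, SE), adjusted p = 3e-05. In nucleotide synthesis 13 of 30 genes rose (43.3%) and 2 fell (6.67%). Adsl rose from 24.5 to 61.5 CPM and Cmpk1, a pyrimidine kinase, fell from 204 ± 21.9 to 81.9 ± 5.55 CPM (log2 change -1.30 ± 0.14). In sterol and fatty acid synthesis 11 of 29 rose (37.9%) and 5 fell (17.2%). Sqle, squalene epoxidase, rose from 83.9 to 172 CPM, while Idi1 and Nsdhl fell from 116 to 34.5 CPM and from 45.6 to 12.4 CPM. Of 18 fatty acid oxidation genes 3 rose (16.7%) and 4 fell (22.2%). Eci1 rose from 15.9 to 37.9 CPM. Etfa, which passes electrons to the respiratory chain, fell from 48.97 to 28.4 CPM and rose in standard medium, from 66.3 to 107 CPM. The difference of the changes was -1.44 ± 0.25 (SE), limma adjusted p = 0.00033, kept under all 4 scalings. Of 19 serine and one-carbon genes 7 rose and 1, Mat2b, fell from 1404 to 872 CPM, but with median-ratio scaling 3 rose and 4 fell, and 3 rises and 1 fall were kept under all 4 scalings. The medians of the glycolysis, nucleotide, sterol and fatty acid oxidation lists, all above 0 with CPM, turned negative under at least 1 of the 4 other scalings. The median of all genes moved as well, from 0.19 with CPM to between -0.04 and 0.04, so the sign alone does not set these lists apart.

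MYC and its partners are of interest here because the series also tests a MYC inhibitor in pyruvate-free embryos. Of 12 genes of the MYC and MAX network 7 rose and 1 fell (median 0.78, and 0.40 to 0.56 under the other scalings), with 5 rises and 1 fall kept under all 4. Myc itself was low: 1.596, 0.537, 1.04, 1.48 and 1.495 CPM in the 48 h libraries and 5.697, 2.39, 1.67 and 1.72 CPM in the 52 h libraries. Replicate 1 of the 52 h group was the highest, the other 3 lay just above the 48 h range (log2 change 0.71 ± 0.26 (SE), adjusted p = 0.027), and no other scaling kept the call. It was also lost without 52 h replicate 1 (0.41, adjusted p = 0.21), 48 h replicate 2 (0.58, adjusted p = 0.088) or 48 h replicate 3 (0.69). In standard medium Myc rose from 9.58 to 34.5 CPM. Max, the partner of the MYC and MXD proteins, rose from 58.2 ± 9.85 to 109 ± 9.03 CPM (log2 change 0.91 ± 0.15 (SE), adjusted p = 9e-06); Mga, a MAX-binding repressor, rose from 45.8 to 85.2 CPM, Mxd4 from 15.5 to 32.1 CPM, Mxi1 from 2.26 to 4.78 CPM and Mlxip, which pairs with MLX to sense glucose metabolites, from 29.8 ± 3.78 to 78.5 ± 8.63 CPM (log2 change 1.37 ± 0.25). Mnt rose at a low level (from 0.8202 to 2.69 CPM), a call kept under 2 of 4 scalings, and Mlx fell from 9.301 to 5.58 CPM with overlap (adjusted p = 0.034), a call lost in 5 of the 9 fits without 1 library (-0.42, adjusted p = 0.28, without 52 h replicate 4). Mycn, Mycl, Mxd1 and Mxd3 did not pass the threshold (from 1.37 to 2.47 CPM, from 1.23 to 2.23 CPM, from 42.3 to 49.1 CPM and from 0.853 to 1.48 CPM). In standard medium Max and Mga changed by 0.06 and 0.02, and the changes differed by 0.85 and 0.87, calls kept under 3 and 2 of 4 scalings. They were lost without replicate 3 of the standard 52 h group for Max (0.73, adjusted p = 0.055) and without replicate 3 of the standard 48 h group for Mga (0.79, adjusted p = 0.056).

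Of 29 further MYC targets 12 rose (41.4%) and 2 fell (6.90%), against 27.7% and 12.7% of all genes, and 9 and 2 were kept. Their median was 0.38, and 0.06 to 0.23 under the other scalings. In standard medium 12 of them rose and 4 fell, with a median of 0.39. The median of all genes was 0.19 without pyruvate and -0.02 in standard medium. Srm, spermidine synthase, rose from 12.7 to 52.1 CPM (log2 change 1.93 ± 0.26), Set, a histone chaperone, from 175 to 459.9 CPM, Pa2g4, a growth regulator, from 121 ± 40.7 to 309.9 ± 15.5 CPM (1.41 ± 0.19) and Tcof1, the nucleolar treacle protein, from 13.2 to 32.4 CPM. These rises were kept under all 4 scalings for each of the 4 genes.

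Cell cycle genes held both rises and falls. Of 43 DNA replication genes 15 rose (34.9%) and 7 fell (16.3%), against 27.7% and 12.7% of all genes, and 8 and 7 were kept. Their median of 0.26 lay between -0.05 and 0.06 under the other scalings, where that of all genes, 0.19 with CPM, lay between -0.04 and 0.04. Mcm2, of the replicative helicase, had 52.9, 47.4, 59.6, 46.8 and 42.4 CPM in the 48 h libraries and 174, 176, 127 and 151 CPM in the 52 h libraries. Mcm2 changed by 1.63 ± 0.20 (log2, SE), adjusted p = 8.2e-08. Ccne1, cyclin E1, rose from 187 ± 52.3 to 496 ± 40.02 CPM (log2 change 1.43 ± 0.20) and Mcm3 from 13.3 to 35.9 CPM. Of 50 genes of G2 and mitosis 17 rose (34.0%) and 2 fell (4.0%) with CPM. With median-ratio scaling 6 rose and 17 fell, so the direction of the list rests on the scaling. The kinases Aurkb and Plk1 rose from 23.5 to 48.3 CPM and from 43.9 to 87.8 CPM, Prc1, of the central spindle, from 126 to 232 CPM and the kinetochore gene Nuf2 fell from 475 ± 22.2 to 227 ± 27.4 CPM (log2 change -1.07 ± 0.13). Slbp, which binds the stem-loop of histone mRNA, fell from 1215 ± 371 to 410.5 ± 39.4 CPM (log2 change -1.52 ± 0.19 (SE), adjusted p = 9.8e-08); the standard change was from 676 to 502 CPM, and the difference of the changes was -1.11 ± 0.30 (SE), adjusted p = 0.012, kept under 3 of 4 scalings.

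Stress and cell death genes held a few large changes. Of 29 p53 target and DNA damage genes 9 rose and 1 fell (6 and 7 with median-ratio scaling), with 5 and 1 kept, and the median, 0.23, lay between -0.05 and 0.05 under the other scalings. Pmaip1, which encodes the death promoter NOXA, was at 26.2, 14.8, 17.6, 20.2 and 15.9 CPM in the 48 h libraries and 51.6, 45.1, 56.1 and 48.2 CPM in the 52 h libraries. Pmaip1 changed by 1.39 ± 0.20 (log2, SE), adjusted p = 1.5e-06. It fell in standard medium, with 37.3, 32.6 and 43.5 CPM at 48 h and 13.7, 11.4 and 16.8 CPM at 52 h. Mdm4, an inhibitor of p53, was abundant and rose from 2154 ± 124 to 5593 ± 402 CPM. Mdm4 changed by 1.38 ± 0.11 (log2, SE), adjusted p = 8.7e-12. Sesn2, a stress-induced inhibitor of mTORC1 that is also on the integrated stress response list, rose from 6.15 ± 3.63 to 29.3 ± 7.18 CPM (log2 change 2.16 ± 0.22) and the kinase Plk3 from 9.02 to 42.2 CPM. On the integrated stress response list 8 of 20 rose and 1 fell, with 4 and 1 kept under all 4 scalings. Of all genes 27.7% rose and 12.7% fell. Cebpg was among the rises, from 56.9 to 94.1 CPM. Of 23 apoptosis genes 10 rose and 3 fell, with 4 and 3 kept under all 4 scalings. Bcl2l1, the survival factor BCL-XL, rose from 56.8 ± 14.1 to 124 ± 25.8 CPM (log2 change 1.12 ± 0.27) and Birc3, an inhibitor of apoptosis, fell from 408 ± 98.9 to 161 ± 25.8 CPM (-1.32 ± 0.19).

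Of 29 oxidative stress genes 9 rose (31.0%) and 6 fell (20.7%), against 27.7% and 12.7% of all genes. With median-ratio scaling 5 rose and 10 fell. Hmox1, heme oxygenase, fell from 21.9 to 11.7 CPM, a call lost without 52 h replicate 2 (-0.76, limma adjusted p = 0.054). Of 34 chaperones 11 rose (32.4%) and 6 fell (17.6%), and 5 rose and 15 fell with median-ratio scaling. The medians of both lists, and that of the apoptosis genes, turned negative under at least 1 other scaling. The median of all genes went from 0.19 with CPM to between -0.04 and 0.04. Dnajb11, of the endoplasmic reticulum, rose from 18.7 to 53.2 CPM, Hsph1 from 20.8 to 45.6 CPM and Hsp90aa1 fell from 245 ± 36.3 to 118 ± 7.92 CPM (log2 change -1.04 ± 0.15). Hsph1 went from 98.4 to 82.1 CPM in standard medium, and the 2 changes differed by 1.35 ± 0.27 (SE), adjusted p = 0.0015, kept under all 4 scalings. Of 28 genes of energy sensing and mTOR 11 rose (39.3%) and 2 fell (7.14%) with CPM. With median-ratio scaling 6 rose and 6 fell, and 6 rises and 2 falls were kept under all 4. Among those that rose were Eif4ebp1, the translation repressor under mTOR, from 25.6 to 53.6 CPM, and Mtor from 17.04 to 32.2 CPM.

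Lineage genes rose more often than they fell with CPM as deposited. Of 20 pluripotency genes 10 rose and 3 fell (4 and 3 kept). Tbx3 rose from 11.02 ± 4.04 to 47.2 ± 8.26 CPM (log2 change 2.05 ± 0.25 (SE), adjusted p = 6.6e-08), Klf5 from 12.7 to 38.3 CPM and Sall4 from 145 to 284 CPM, while the maternal Pou5f1 transcript fell from 38.6 ± 4.71 to 19.5 ± 4.14 CPM (log2 change -0.96 ± 0.19). Of 27 trophectoderm and compaction genes 15 rose (55.6%) and none fell in the limma test (1 fell at an unadjusted p below 0.05). With median-ratio scaling 6 rose and 2 fell, and 5 rises were kept under all 4 scalings. Cldn6, of tight junctions, had 59.8, 41.8, 44.8, 44.6 and 57.9 CPM in the 48 h libraries and 124, 86.3, 105 and 127 CPM in the 52 h libraries (log2 change 1.14 ± 0.24 (SE), adjusted p = 0.00034), and Yap1 rose from 178 to 229.8 CPM, a call that no other scaling kept and that was lost in 4 of the 9 fits without 1 library (adjusted p up to 0.12, without 52 h replicate 1). In standard medium Cldn6 went from 69.8 to 49.6 CPM, and the 2 changes differed by 1.61 ± 0.38 (SE), adjusted p = 0.0054, a call lost with a pseudocount of 0.1 (adjusted p = 0.051).

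The change from 48 h to 52 h differed between media for 2785 of 20739 genes (13.4%), 2020 higher and 765 lower without pyruvate; with median-ratio scaling 749 were higher and 1146 lower, so the balance of directions rests on the scaling. Without replicate 3 of the standard 48 h group 1580 genes were called. Higher changes made up 72.5% of these calls with CPM and 39.5%, 52.4%, 45.6% and 47.3% under the other 4 scalings. The 2 intervals are matched in hours and not in stage. Mean stage positions went from 0.272 to 0.419 without pyruvate and from 0.617 to 0.775 in standard medium. How far this difference in stage entered the calls was not tested. The genes below are among those with the largest differences at 20 CPM or more in 1 of the 4 groups; numbered genes and Usp17lc, of a near-identical family, were passed over, and Zscan4e is described above. For Pmaip1 the difference was 2.76 ± 0.32 (SE), adjusted p = 1.4e-06. Bclaf3, a relative of the death-linked factor BCLAF1, rose without pyruvate with 20.9, 12.3, 12.9, 16.1 and 17.9 CPM in the 48 h libraries and 56.6, 44.2, 57.2 and 61.9 CPM in the 52 h libraries. Bclaf3 changed by 1.73 ± 0.23 (log2, SE), adjusted p = 2.9e-07. It fell in standard medium, with 46.4, 59.01 and 63.1 CPM at 48 h and 24.9, 37.1 and 26.8 CPM at 52 h, and the 2 changes differed by 2.64 ± 0.36 (SE), adjusted p = 2.2e-05. Zfp871, a zinc-finger gene, went from 5.998 to 12.3 CPM without pyruvate (adjusted p = 0.052) and from 20.6 to 5.78 CPM in standard medium (difference 2.59 ± 0.61 (SE), adjusted p = 0.0052). Acer1, an alkaline ceramidase, stayed below 1 CPM in all 9 pyruvate-free libraries while it rose from 2.48 to 21.9 CPM in standard medium (difference -2.92 ± 0.46 (SE), adjusted p = 0.00016), and Plbd1, a phospholipase, went from 4.06 to 3.07 CPM without pyruvate and from 6.34 to 30.8 CPM in standard medium (difference -2.55 ± 0.43 (SE), adjusted p = 0.00032). Each of these 5 differences was kept under all 4 other scalings and without each library in turn.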

How the data were processed

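Gene expression was measured by Smart-seq2 in 85 libraries of mouse preimplantation embryos, of which the 5 pyruvate-free 2-cell libraries of 48 h and the 4 of 52 h are described. The authors deposited 1 table of CPM (read counts per gene scaled to a common total) by gene symbol. The submitters' processing notes name STAR 2.6.1d and mm10, and the gene counter is not given in the sources used here. Of its 91 columns, 6 matched no sample and were not used. Whole reads could not be recovered (73.2 to 77.3% of values up to 20 reads lay within 0.1 of a whole number), so no count model was used. Positions and gene types come from GENCODE vM21, which matched 36810 of 37368 symbols.

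Values were taken as log2(CPM + 1), which understates the change of genes with low values, in genes above 1 CPM in at least 3 of the 34 libraries of 9 groups (20739 genes). limma 3.58.1 (R 4.3.3) was fitted to all 9 groups with a mean-variance trend (eBayes, trend = TRUE), and p-values were adjusted over all genes by Benjamini-Hochberg at 0.05. The difference between media is the pyruvate-free change minus the standard change. The fit was repeated with a pseudocount of 0.1, without the filter, on only the groups of each comparison, with the replicate number as a term, without each library in turn and under 4 scalings; the removal of the GC trend was chosen after seeing the data. The fit was tested on simulated data before use. It recovered 150 of 150 changes of 2-fold or more and 22 of 50 changes of 1.5-fold, with 25 false calls among 20314 genes. The simulation held far fewer changed genes than the data and no GC trend in the change, so it does not test the choice of scaling. Estimated depths of 10.4 to 24.997 M reads bound the precision of low genes. Named genes are those that reach a mean of 20 CPM in one of the groups, with no overlap between groups and an adjusted p below 0.05: from these, the 15 largest rises, the 15 largest falls and the 4 largest changes of each list. All members of the pyruvate and MYC lists were added, as were the 6 largest differences between media with at least 20 CPM in a group. Those printed were chosen from them for a known role, and numbered genes or near-identical copies could be passed over in favour of the next in rank, as which Zfp871 and Plbd1 entered. The members and gene lists were chosen with earlier results of these data known. Summaries and exact tests used Python 3.11.15 with scipy 1.17.1, pandas 2.3.3 and numpy 2.4.6, and plots matplotlib 3.10.9.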

Additional observations from a re-analysis of the deposited data

Results flagged for a closer look

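The change from 48 h to 52 h differed between the media, by the limma interaction test at an adjusted p below 0.05, for 43 of the 149 genes described, 32 with a higher and 11 with a lower change without pyruvate. This is a description, since 5 of them (Pmaip1, Bclaf3, Acer1, Zfp871 and Plbd1) were chosen for that difference. Most of the others were chosen for a large change without pyruvate, which is itself part of the difference. Of all genes tested 13.4% had such a difference, but the choice of genes keeps the count of 43 from being compared with that share. The media also stood at different stage positions over these hours, and the part of stage in these differences was not tested. In fits that left out 1 library at a time, 21 of the 43 kept the call in every fit and 22 lost it in at least 1. Under other scalings, 14 higher and 10 lower ones kept the call under all 4. The higher ones are given with the difference of the 2 log2 changes. The largest were those of Pmaip1 (2.76), Bclaf3 (2.64), Zscan4e (2.62), Zfp871 (2.59), Entpd7 (2.04), Arf5 (1.99), Tnfsf12 (1.90), Rnf126 (1.71), Odf2 (1.68), Gsk3a (1.67) and Cldn6 (1.61). Next came Pdk2 (1.49), Snrpc (1.49), Hsph1 (1.35), Kdm6b (1.30), Ldha (1.25), Ep300 (1.17), Slc16a1 (1.14), Tbx3 (1.14), Pdk3 (1.10), Sesn2 (1.03) and Pa2g4 (1.02). The remaining ones were Prc1 (1.01), Adsl (0.94), Btg4 (0.92), Mga (0.87), Psmb1 (0.86), Eif4g1 (0.86), Max (0.85), Dnajb11 (0.80), Yap1 (0.71) and Mdm4 (0.63). The lower ones were Acer1 (-2.92), Plbd1 (-2.55), Rgs2 (-2.18), Snrpb2 (-1.70), Uqcrc2 (-1.68), Snrpd3 (-1.48), Pdhx (-1.47), Etfa (-1.44), Slbp (-1.11), Dld (-0.94) and Cmpk1 (-0.78).

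By Dixon's test 1 library stood apart from the rest of its group for 11 of 310 groups of values, where chance gives about 1 in 20. In the 48 h group, replicate 1 was the lowest for Snrpb2 (139 CPM) and Ldhb (1203 CPM) and the highest for Ccne1 (279 CPM), Sesn2 (12.6 CPM) and Mtor (22.0 CPM). Replicate 2 was the lowest for Sall4 (124 CPM) and Acer1 (0.0672 CPM), and replicate 3 the highest for Slbp (1871 CPM). In the 52 h group, replicate 2 was the highest for Rnf126 (111 CPM) and the lowest for Aars (22.2 CPM), and replicate 3 the lowest for Scaf1 (39.6 CPM).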

How the results depend on the processing

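Of the 149 genes described, 122 kept the direction and the side of the threshold of their 48 h to 52 h change under all 17 alternatives. Leaving out 1 library at a time gave 7233 to 8440 changed genes and 1580 to 3111 genes whose change differed between media, the lowest without replicate 3 of the standard 48 h group. It gave a stage position difference of 0.135 to 0.161, a change in the share of the 100 highest genes of -5.19 to -3.86 percentage points, and 719 to 908 more genes above 1 CPM. The mitochondrially encoded share changed by -0.553 to 0.653 percentage points, and its sign turned without 48 h replicate 2 (-0.113), 48 h replicate 3 (-0.127), 52 h replicate 1 (-0.553) and 52 h replicate 2 (-0.226).

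The sign of 8 genes that did not pass the threshold turned; the cause was not tested. With median-ratio scaling the log2 changes were -0.14 for Pdk1, -0.26 for Pdk3, -0.11 for Pdha1, -0.22 for Pdhb and -0.077 for Mxd1. With quantile normalization they were -0.11 for Pdk1, -0.045 for Pdk3, -0.077 for Pdha1 and -0.015 for Pdhb. With the gene length trend removed they were -0.13 for Pdk1, -0.10 for Pdk3, -0.022 for Pdha1, -0.13 for Pdhb and -0.056 for Mxd1. With the GC trend removed they were -0.14 for Slc16a3, -0.041 for Bsg, -0.087 for Pdk3, -0.0095 for Pdhb, -0.12 for Gpt and -0.00115 for Mxd1. Leaving out 1 library put Pdk3 at -0.039 (48 h replicate 5) to 0.113 (48 h replicate 3).

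Replicate numbers did not pair the samples: the deviations of same-numbered libraries correlated at 0.0079, 0.0038, 0.0264 and -0.0167. With the replicate number as a block 7834 genes changed, against 8092 for the same libraries without it, and 2554 differed between media; Pdk3 was then at -0.039. A pseudocount of 0.1 gave 7161 changed genes.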
